A study of Drosophila melanogaster with 16 samples.

Results

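The 8 Sidestep family genes of the fruit fly (Drosophila melanogaster) were followed across 7 types of neuron of the developing visual system. They were taken by symbol from a table of 15682 genes, where only the founding member carried a Sidestep name: side. The other 7 stood under older symbols: CG42313 is side-II, CG34113 is side-III, CG14372 is side-IV, CG34371 is side-V, CG34114 is side-VI, CG12950 is side-VII and CG12484 is side-VIII. All 8 were found, each on 1 row, and all 8 passed the filter on low values, 1 RPKM or more in 2 or more libraries. RPKM is the number of reads on a gene scaled to its length and to the depth of the library. It does not by itself make libraries of different cell types fully comparable.

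The cells were lamina neurons L1 to L5, which carry signals from the outer photoreceptors into the medulla, and the inner photoreceptors R7 and R8, which detect colour and end in the medulla. All were labelled wild type, and each type was isolated by flow cytometry from dissociated pupal brains. The marker or driver used to sort each type is not given in the sources used here. There were 4 libraries of L3 and 2 of each other type, 16 in all, and nothing in the labels says whether the libraries of a type came from separate dissections, so p-values reflect only how far these libraries differed, which may be technical. The title of the series puts the question of which immunoglobulin superfamily ligands and receptors are expressed in complementary fashion by synaptic partners. Their targets in the medulla were not analysed here.

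The age of the cells is uncertain. In hours after pupal formation, the labelled ages were 24 (L1), 35 (L2), 40 (L3), 45 (L4), 53 (L5), 65 (R7) and 96 (R8). The protocol instead described a single dissection time of 40 h, and the lamina column headings carried 40 too. If the labelled ages are right, age and cell type cannot be told apart in any comparison given here.

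Sidestep proteins are cell surface proteins of the immunoglobulin superfamily. The founding member, Side, is a guidance ligand: in the embryo it stands on the path of motor axons and on muscle, and motor axons find it with the receptor Beat-Ia. Other Side proteins bind other members of the Beat family, and pairs of this kind have been studied in the fly visual system as cues for the choice of synaptic partner. Among the known pairs, Side-II binds Beat-VI, Side-IV binds Beat-IIa and Beat-IIb, and Side-VI binds the 3 Beat-V proteins.

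Depth ran from 47.0 to 153 M reads per library, as recovered from the steps between low values. Summed over all genes, RPKM ran from 449157 to 608266 in lamina libraries and from 631780 to 678356 in photoreceptor libraries. The main fit applied no further scaling between libraries. By exon lengths of the current annotation, the lowest member value rested on about 104 reads, and all others on more. Known identity genes were high where the labels put them: svp in L1, bab1 and bab2 in L2, erm in L3, ap in L4, pdm3 in L5, pros and run in R7, and sens in R8. Markers of other cells were low, with summed levels of 1.09 to 14.7 RPKM for 5 glial genes and at most 8.43 RPKM for 5 medulla neuron genes. The photoreceptor gene chp was at 19.3 to 59.1 RPKM in L3, 1.72 to 10.6 RPKM in the other lamina libraries and 875 to 1371 RPKM in R7 and R8. Pph13 and oc were also higher in every L3 library than in any other lamina library, at no more than 3.99 and 3.86 RPKM, against 95.2 RPKM or more and 35.2 RPKM or more in photoreceptors. Another photoreceptor gene, gl, did not set L3 apart. It had 5.14 to 6.85 RPKM in L3 and 1.09 to 9.67 RPKM in the other lamina libraries, highest in L4 replicate 1. In R7 and R8 it had 84.6 to 112 RPKM. Whether photoreceptor RNA has a part in the levels of L3 or L4 was not tested. Libraries of 1 type differed in other ways too. L3 replicates 3 and 4 had mitochondrial shares of 14.7% and 9.65% of reads, against 4.19% and 4.01% in replicates 1 and 2. L4 replicate 1 had a glial sum of 14.7 RPKM against 2.32 in replicate 2, most of it from gcm (10.3 against 0.120).

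Across the 7 types, 6 members were at 10 RPKM or more in 1 or 2 types only (side-II, side-III, side-IV, side-V, side-VI and side-VIII). The gene side reached that level in every library of 3 types (L1, L3 and L4), and side-VII did so in all 7. Every member differed among the types (limma F-test with Benjamini-Hochberg adjustment over 9346 genes), with adjusted p from 9.08e-11 for side-II to 0.0025 for side-VII. That test called 70.9% of all genes, so a call by itself sets the family apart little. The size of the difference was another matter. The range between the highest and the lowest type was taken on the log2(RPKM + 1) scale. Its median was 6.42 over the 8 members and 1.39 over all genes tested. A gene that is low in all types cannot have a wide range on this scale, and the genes tested were not matched to the members by level.

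**Figure D1:**
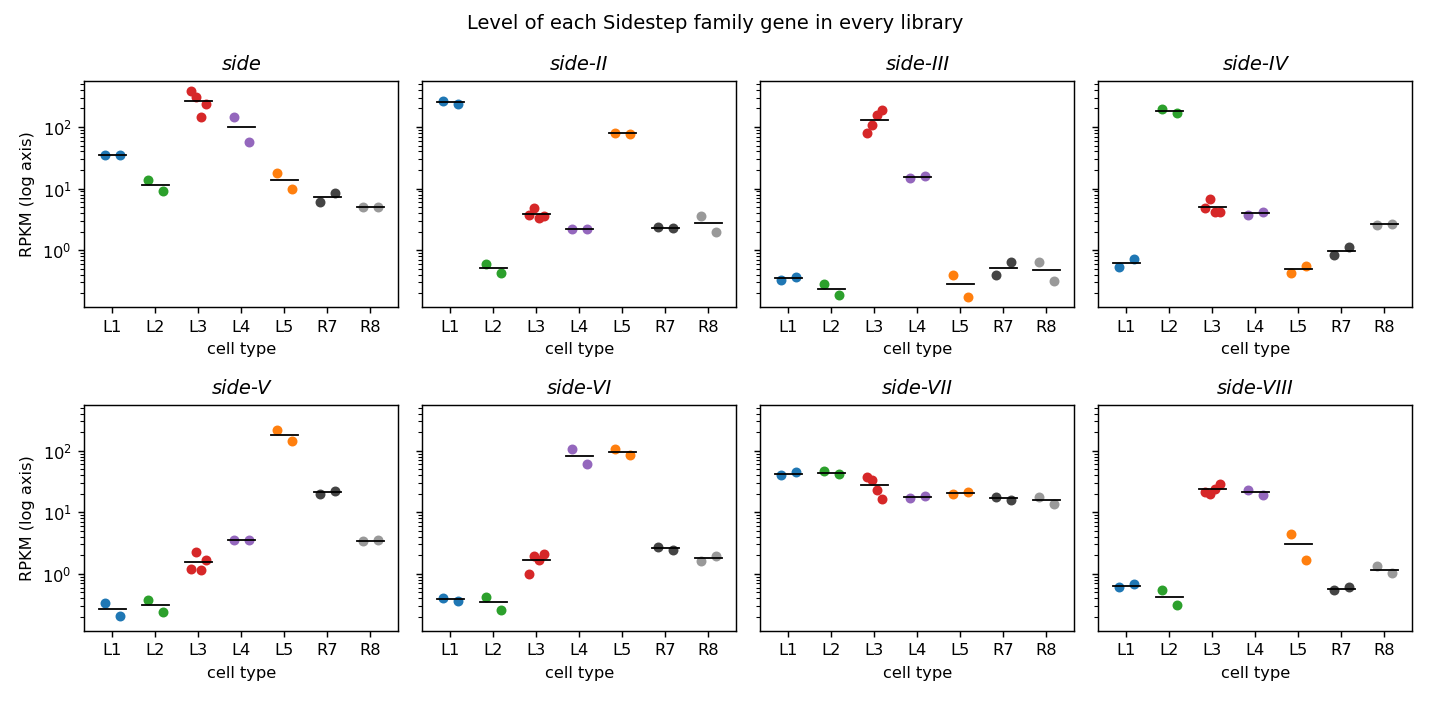
Level of each Sidestep family gene in RPKM on a log axis, with 1 point per library, cell types along the horizontal axis and a bar at the mean of each type (4 libraries for L3 and 2 for each other type). The peak lies in L3 for side, side-III and side-VIII, in L1 for side-II, in L2 for side-IV and in L5 for side-V and side-VI, while side-VII stays between 13.7 and 46.3 RPKM in every library.

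The gene side, whose protein guides motor axons, was highest in L3. Its values in the 4 L3 libraries were 380, 306, 146 and 232 RPKM. L4 followed with 144 and 58.1 RPKM and L1 with 35.2 and 34.6 RPKM. L3 stood above every other library, but only just, since its lowest value of 146.2 lay next to 144.1 in L4 replicate 1. The remaining types were lower, with 13.6 and 9.11 RPKM in L2, 18.2 and 9.83 RPKM in L5, 6.03 and 8.33 RPKM in R7, and 4.97 and 5.05 RPKM in R8. The gene was thus read in all 7 types, over a range of 53.0 times between the means of L3 and R8.

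L3 exceeded the mean of the other 4 lamina types for side by 3.19 ± 0.28 on the log2(RPKM + 1) scale (SE; limma, adjusted p = 2.50e-06). Differences from the other lamina types are given in this way throughout, against a mean of logs, which can lie below 1 of the types it holds. The next step down the order, from L3 to L4, was 1.44 ± 0.40 (adjusted p = 0.0221), and it missed the threshold without L4 replicate 2 (adjusted p = 0.238). L4, although below L3, exceeded the log2 mean of the other 4 lamina types by 1.38 ± 0.36 (adjusted p = 0.0142), a call that rested on L4 replicate 1: without it the difference was 0.74 (adjusted p = 0.255). The step from L4 to L1 (adjusted p = 0.0452) was lost when any 1 of 10 libraries was left out, and the 4 lower steps, from L1 to L5, L2, R7 and R8, did not pass (adjusted p from 0.0593 to 0.766). Of these lower steps, that from L1 to L5 was called under quantile normalization (adjusted p = 0.0433) and without L3 replicate 3 (0.0311). It was also called without L3 replicates 3 and 4 (0.0261). A fit with replicate number as a block, which also takes out those 2 libraries, called it too (0.0143). The gene side also had the widest spread between libraries of a type among the 8 members. Its mean SD was 0.40 on the log2 scale, against a median of 0.18 for the family and 0.20 for all genes. Replicate 1 had more side than replicate 2 in every lamina type, and less in R7 and R8.

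The gene side-II, which encodes the ligand of Beat-VI, was high in L1 and at a lower level in L5. The L1 libraries had 263 and 239 RPKM and the L5 libraries had 81.1 and 76.2 RPKM. Both types stood clear of the other 12 libraries, of which L3 replicate 2 was the highest at 4.87 RPKM. The other L3 libraries had 3.66, 3.28 and 3.56 RPKM, those of L4 had 2.19 and 2.21 RPKM, those of R7 had 2.34 and 2.30 RPKM, and those of R8 had 3.54 and 1.96 RPKM. L2 was lowest, with 0.600 and 0.423 RPKM, and the means of L1 and L2 differed by 490.1 times. L1 exceeded the other lamina types by 5.26 ± 0.17 (limma, adjusted p = 3.22e-10) and L5 did so by 3.19 ± 0.17 (adjusted p = 2.23e-08), both on the log2(RPKM + 1) scale. The step from L1 to L5 (1.66 ± 0.22, adjusted p = 0.000109), the step from L5 to L3 (4.05 ± 0.19, adjusted p = 4.16e-09) and the last step, from L4 to L2 (1.08 ± 0.22, adjusted p = 0.00266), all passed, while L3, R8, R7 and L4 did not differ as neighbours in the order.

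The gene side-IV, which encodes the ligand of Beat-IIa and Beat-IIb, was high in L2 alone. The L2 libraries had 195 and 167 RPKM. The next highest library was L3 replicate 2 at 6.86 RPKM, and the other L3 libraries had 4.82, 4.196 and 4.09 RPKM. Every value outside L2 was thus far below it, with 3.69 and 4.201 RPKM in L4, 2.56 and 2.69 RPKM in R8, 0.829 and 1.13 RPKM in R7, 0.524 and 0.713 RPKM in L1 and 0.431 and 0.558 RPKM in L5. The mean of L2 was 36.3 times that of L3, and L2 exceeded the other lamina types by 5.97 ± 0.17 on the log2(RPKM + 1) scale (limma, adjusted p = 1.54e-10). In the current annotation 67.5% of the exonic bases of side-IV overlap 2 antisense RNA genes, CR17025 and CR46354. Reads of the strands cannot be told apart unless the counting used strand, which is not given in the sources used here. CR17025 had at most 0.0930 RPKM as a row of its own, and CR46354 was not looked up. Whether antisense reads have a part in the level of side-IV was not tested.

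The gene side-V was high in L5, and it was the member with the highest level in R7. The L5 libraries had 214 and 144 RPKM and the R7 libraries had 19.97 and 22.1 RPKM. No other library exceeded 3.59 RPKM: those of L4 had 3.53 and 3.59 RPKM, those of R8 had 3.36 and 3.50 RPKM and those of L3 had 1.18, 2.25, 1.16 and 1.67 RPKM. L1, with 0.334 and 0.210 RPKM, and L2, with 0.378 and 0.236 RPKM, were lowest. The mean of L5 was 8.51 times that of R7 and 657.3 times that of L1. L5 exceeded the other lamina types by 6.40 ± 0.18 on the log2(RPKM + 1) scale (limma, adjusted p = 2.49e-10), the greatest such difference of any member in any lamina type. The steps from L5 to R7 (3.003 ± 0.235, adjusted p = 4.46e-07) and from R7 to L4 (2.27 ± 0.24, adjusted p = 4.89e-06) both passed.

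The gene side-VI, which encodes the ligand of the Beat-V proteins, was shared by L4 and L5. The L4 libraries had 105 and 60.8 RPKM and the L5 libraries had 106 and 84.4 RPKM. These ranges overlapped, and the means of L5 and L4 did not differ beyond their spread (0.24 ± 0.27 on the log2(RPKM + 1) scale, limma, adjusted p = 0.675). All other libraries lay far below: R7 had 2.73 and 2.48 RPKM, R8 had 1.62 and 1.97 RPKM, L3 had 0.994, 1.98, 1.71 and 2.12 RPKM, L1 had 0.410 and 0.358 RPKM and L2 had 0.427 and 0.263 RPKM. The mean of L4 was 31.9 times that of R7, a step of 4.49 ± 0.27 on the log2 scale (adjusted p = 3.74e-08). L4 exceeded the other lamina types by 4.12 ± 0.21 (adjusted p = 2.21e-08) and L5 did so by 4.42 ± 0.21 (adjusted p = 7.73e-09), each against a mean that held the other of the pair.

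The gene side-III was high in L3 and present at a lower level in L4. The L3 libraries had 79.8, 107, 156 and 185 RPKM and the L4 libraries had 14.8 and 15.9 RPKM. The 2 types did not overlap, and no other library reached 0.641 RPKM apart from R8 replicate 1, which held that value. The means of the 5 other types ran from 0.235 RPKM in L2 to 0.515 RPKM in R7, and none of them differed from its neighbour in the order. The step from L3 to L4 was 2.95 ± 0.28 (limma, adjusted p = 4.84e-06) and that from L4 to R7 was 3.44 ± 0.32 (adjusted p = 1.80e-06). L3 exceeded the log2 mean of the other lamina types by 5.70 ± 0.19 (adjusted p = 2.48e-10). L4 exceeded the log2 mean of its other 4 by 2.01 ± 0.25 (adjusted p = 7.46e-05), a mean that holds L3, which was itself 8.61 times higher than L4.

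Within L3, side and side-III went opposite ways. Replicates 1 and 2 had the higher values of side (380 and 306 RPKM) and the lower values of side-III (79.8 and 107 RPKM), and replicates 3 and 4 had 146 and 232 RPKM of side and 156 and 185 RPKM of side-III. The 2 L3 libraries with more side-III are those with the higher mitochondrial share, 14.7% and 9.65%, and whether that share has a part in the difference was not tested. With L3 replicates 3 and 4 left out, both genes kept their calls for L3 against the other lamina types.

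The gene side-VIII had the same pair of types as side-III, at nearly equal levels. The L3 libraries had 21.7, 20.1, 23.5 and 28.4 RPKM and the L4 libraries had 23.1 and 19.0 RPKM. The types overlapped and did not differ (0.14 ± 0.24 on the log2(RPKM + 1) scale, limma, adjusted p = 0.739). L5 came next with 4.38 and 1.65 RPKM, then R8 with 1.32 and 1.02 RPKM, L1 with 0.602 and 0.686 RPKM, R7 with 0.544 and 0.611 RPKM and L2 with 0.544 and 0.308 RPKM. The mean of L4 was 6.99 times that of L5, a step of 2.54 ± 0.28 (adjusted p = 3.44e-05). The step from L5 to R8 (0.80 ± 0.28, adjusted p = 0.0348) was lost without L5 replicate 1 (adjusted p = 0.417) or without either R8 library (adjusted p = 0.0770 and 0.166).

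The gene side-VII was the exception, present in all 7 types at levels within 2.79 times of each other. Its values were 39.6 and 45.1 RPKM in L1, 46.3 and 41.2 RPKM in L2, and 37.4, 33.1, 23.0 and 16.4 RPKM in L3. The other types lay in or below the lower part of the L3 range, with 20.01 and 21.1 RPKM in L5, 16.9 and 18.6 RPKM in L4, 18.01 and 15.95 RPKM in R7, and 17.6 and 13.7 RPKM in R8. No neighbours in this order were called (limma, adjusted p from 0.0787 to 0.976). The step from L3 to L5 was called without L3 replicates 3 and 4 (adjusted p = 0.00469) and with a replicate block (0.00486). The block also takes out those 2 libraries, and the difference was the same, 0.75 on the log2 scale, so these are not separate checks. The step from L1 to L3 was called without L3 replicate 1 (0.0243) and under quantile normalization (0.0365). L1 and L2 exceeded the other lamina types by 0.71 ± 0.23 (adjusted p = 0.0483) and 0.77 ± 0.23 (adjusted p = 0.0343), and L4 fell short of them by a log2 difference of -0.80 ± 0.23 (adjusted p = 0.0261). These calls were near the threshold. Leaving out single libraries ended the L1 call in 13 of 16 cases (adjusted p up to 0.315), the L2 call in 5 (adjusted p up to 0.202) and the L4 call in 2, which were the L4 libraries themselves (adjusted p = 0.145 and 0.0747).

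The set of Sidestep genes above a given level differed from type to type. A level of at least 10 RPKM in every library of a type was reached by 3 members in L1 (side, side-II, side-VII), 2 in L2 (side-IV, side-VII), 4 in L3 (side, side-III, side-VII, side-VIII), 5 in L4 (side, side-III, side-VI, side-VII, side-VIII), 4 in L5 (side-II, side-V, side-VI, side-VII), 2 in R7 (side-V, side-VII) and 1 in R8 (side-VII). No 2 types had the same set at this level. Only side-VII was in all 7 sets. At a level of 20 RPKM in every library the sets of the lamina types still differed, and R7 and R8 both had 0 members.

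The summed level of the 8 genes was highest in L3, at 461 ± 72.1 RPKM (SD, n = 4). It was 391 ± 75.3 RPKM in L5, 330.5 ± 13.5 in L1, 248 ± 93.1 in L4 and 238 ± 27.3 in L2 (SD, n = 2 each). In the photoreceptors it was 52.2 ± 1.87 RPKM in R7 and 32.9 ± 3.81 RPKM in R8. Every lamina library, from 182 RPKM in L4 replicate 2 upward, exceeded every photoreceptor library, of which R7 replicate 2 was the highest at 53.5 RPKM. In bulk samples such as these, fewer cells with a gene and less of its RNA per cell cannot be told apart.

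A single gene made up most of the sum in L1 and L2. In L1 side-II held 77.3% and 74.4% of it, and in L2 side-IV held 75.9% and 76.3%. In L5 the leading gene was side-V, with 48.1% and 42.6%. The lead changed between libraries in L3, where side led in replicates 1, 2 and 4 and side-III in replicate 3, and in L4, where side led in replicate 1 and side-VI in replicate 2. R7 was led by side-V and R8 by side-VII in both libraries.

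**Figure D2:**
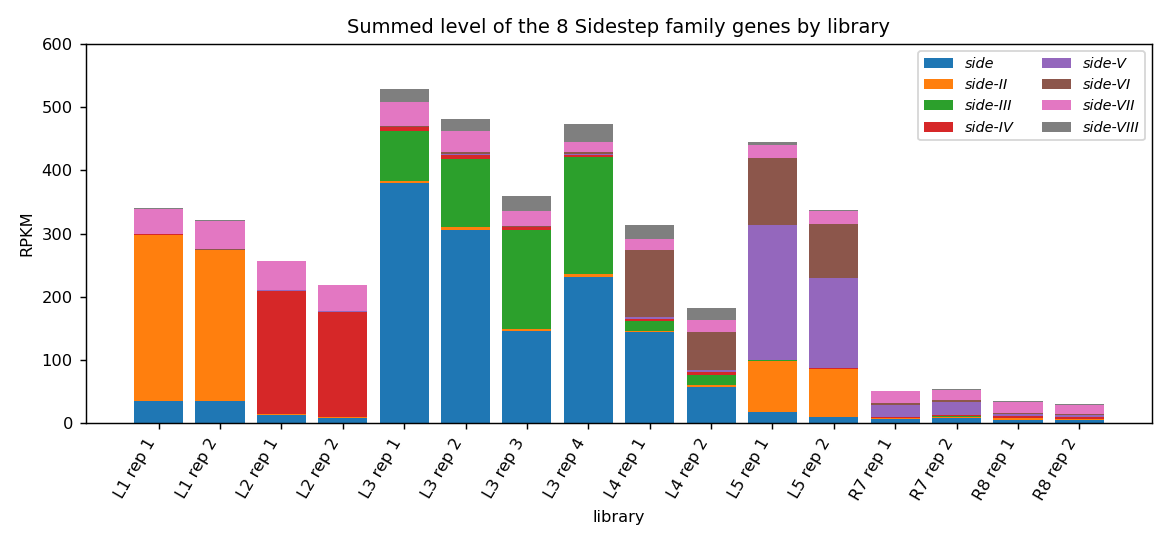
Stacked bars give the summed level of the 8 Sidestep family genes in RPKM in each of the 16 libraries, with 1 colour per gene. The lamina bars reach 182 to 529 RPKM and each type is built from different colours, while the 4 photoreceptor bars stay at or below 53.5 RPKM.

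Between the photoreceptors and the lamina neurons (R7 and R8 averaged, then L1 to L5 averaged), 7 members were lower in photoreceptors and 1, side-V, was higher on the log2(RPKM + 1) scale though not on the RPKM scale. Of all genes tested, 30.2% were lower and 31.7% were higher. The median log2 difference was -1.47 over the members and -0.02 over all genes. These counts held when any 1 library was left out. The differences are between means of types that themselves differ widely, and only side had every lamina library (9.11 RPKM or more) above every photoreceptor library (8.33 RPKM or less). This separation was -2.62 ± 0.27 on the log2(RPKM + 1) scale (limma, adjusted p = 2.37e-06), and 11.7% of all genes separate the 2 kinds of neuron in this direction.

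For the other members at least 1 photoreceptor library lay within the range of the lamina libraries. For side-II the photoreceptors, at 1.96 to 3.54 RPKM, were above L2 and far below L1 and L5. The higher mean of side-V in photoreceptors (0.96 ± 0.14, adjusted p = 5.16e-05) is a mean on the log2(RPKM + 1) scale, and its direction turns on the RPKM scale, where the type means average 12.2 in photoreceptors and 36.9 in lamina neurons. The photoreceptors had values of 3.36 to 22.1 RPKM, which were below both L5 libraries and, in R7, above every library of L1 to L4. For side-VII the difference was the smallest of the 7 that were lower, -0.76 ± 0.18 (adjusted p = 0.00215), and the photoreceptor values of 13.7 to 18.01 RPKM overlapped the lowest lamina values of 16.4 to 16.9 RPKM.

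R7 and R8 differed clearly in 1 member. The 19.97 and 22.1 RPKM of side-V in R7 were 6.13 times the 3.36 and 3.50 RPKM in R8, a log2 difference of 2.31 ± 0.24 (limma, adjusted p = 3.08e-05), and 3.2% of all genes were higher in R7. A second, side-IV, was lower in R7 (0.829 and 1.13 RPKM) than in R8 (2.56 and 2.69 RPKM), by a log2 difference of -0.88 ± 0.22 (adjusted p = 0.0204), where 7.14% of all genes were lower. The side-IV call was lost without any 1 of the 4 photoreceptor libraries (adjusted p from 0.0732 to 0.194) and under quantile normalization (adjusted p = 0.133). The other 6 members, side included, were not called between these photoreceptors (adjusted p of 0.449 or more).

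Among the lamina types, each against the mean of the other 4, every type had members called in both directions. L1 had 2 higher and 5 lower, where 9.53% and 11.6% of all genes were higher and lower. L2 had 2 higher and 6 lower (12% and 9.59% of all genes). L3 had 3 higher and 3 lower (12.5% and 10% of all genes). L4 had 4 higher and 3 lower (11.5% and 12.3% of all genes), and L5 had 3 higher and 3 lower (8.58% and 8.89% of all genes). In the fit of all libraries the members' counts were above the background in both directions in every lamina type. In L1 and in L2 the higher members are 1 of 8 wherever side-VII loses its call, which is near the 9.53% and 12% of all genes. In L4 side-IV and side-VII both lose their lower calls in some omissions, which brings that count near its 12.3%. The lower call of side-IV in L4 is against a mean that holds L2. Its L4 mean of 3.95 RPKM was above those of L1 (0.618) and L5 (0.495). Some of these calls rested on 1 library: side in L5 (-1.97 ± 0.36, adjusted p = 0.00181) missed the threshold without L5 replicate 2 (adjusted p = 0.0584), and side-IV in L4 (-0.53 ± 0.17, adjusted p = 0.0400) missed it when any of 12 libraries was left out singly, as well as with a pseudocount of 0.1 (adjusted p = 0.730).

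Pair by pair, the types differed in most of the family in most pairs, but not in all. L4 against R8 and L5 against R7 were called for 4 members of 8 each, near the 52.1% and 45.3% of all genes called. Over the 21 pairs of types, 116 of 168 comparisons of a member were called, and between 108 and 118 when 1 library was left out. A member was called in 9 pairs (side-VII) to 19 pairs (side-V), and the median over all genes was 6 pairs. L1 against L4 and L2 against L4 were called for all 8 members, where 25.8% and 26.7% of all genes were called. Leaving out 1 library brought these counts to between 6 and 8 and between 7 and 8.

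L1 and L2, by contrast, differed in 2 members out of 8, where 8.36% of all genes were called. Those were the leading genes of each type. Side-II was higher in L1 by 7.38 ± 0.22 on the log2(RPKM + 1) scale and side-IV was higher in L2 (a log2 difference of -6.81 ± 0.22 for L1 against L2), both with an adjusted p of 6.58e-10 (limma). Apart from side, the other members lay close together in the 2 types. The gene side had 34.9 RPKM in L1 and 11.4 RPKM in L2, and the libraries of the 2 types did not overlap. That difference in side missed the threshold in the fit of all libraries and passed it under 9 of the other settings.

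The pairs L4 and L5, and L3 and L5, differed in 6 and 7 members, where 12.6% and 16.7% of all genes were called, and leaving out 1 library did not move either count. L3 and L4, which shared the high level of side-VIII, were called for 5 members, where 21.2% of all genes were called, with 3 to 6 when 1 library was left out.

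**Figure D3:**
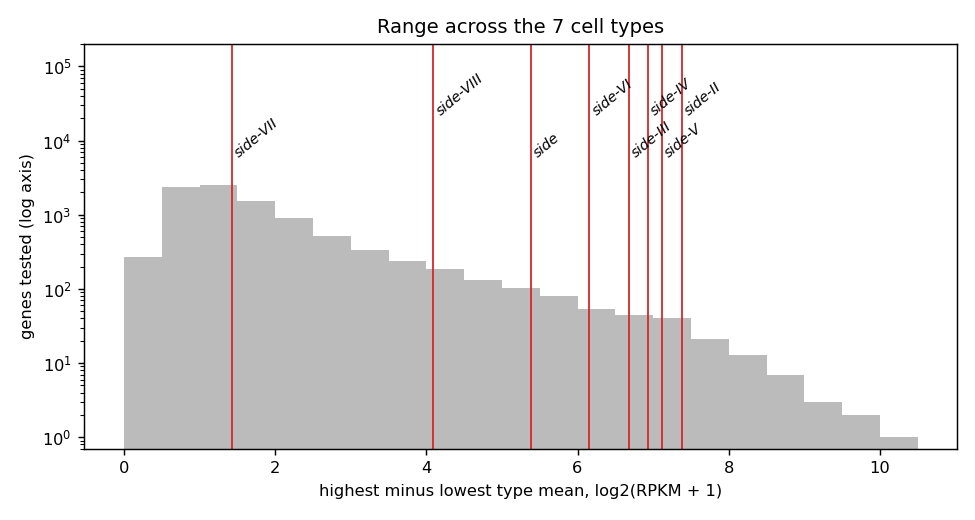
Histogram of the range between the highest and the lowest type mean on the log2(RPKM + 1) scale for the 9346 genes tested, with the number of genes on a log axis and a red line at each Sidestep family gene. The line of side-VII, at 1.43, stands among the bulk of genes, and the other 7 lie between 4.09 and 7.38, in the right tail.

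Set among all genes tested, 7 of the members had a range in the upper tail. The range was 7.38 for side-II, 7.12 for side-V, 6.93 for side-IV, 6.68 for side-III, 6.16 for side-VI, 5.39 for side and 4.09 for side-VIII. Those values lie at percentiles 99.4, 99.2, 99.0, 98.8, 98.2, 97.0 and 93.0 of all genes, which were not matched for level. The range of side-VII, 1.43, lies at percentile 52.2. In 5 members (side, side-II, side-III, side-IV and side-V) every library of the highest type stood above every other library, which was so for 41.3% of all genes.

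Few pairs of members followed each other across the types. The type means of log2(RPKM + 1) gave 28 pairs of members, with a Pearson r over 7 types from -0.61 (side-II and side-IV) to 0.92 (side-III and side-VIII) and a median of -0.01. The 3 pairs above 0.8 were those among side, side-III and side-VIII (0.90, 0.86 and 0.92), and side-V and side-VI reached 0.69. These are descriptions of 7 points that share their libraries.

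The genes whose proteins are the receptors were read in the same cells. Of 14 beat genes, 11 passed the filter; beat-Ic, beat-Va and beat-Vc did not. Of the 11, 7 were lower in photoreceptors than in lamina neurons, 1 was higher (beat-IIIc) and 3 were not called, against the shares of 30.2% and 31.7% of all genes given above, and the median log2 difference was -0.80. Type means of 100 RPKM or more were reached by beat-IIa, beat-IIb, beat-IIIb, beat-IIIc, beat-IV and beat-VI, whereas beat-Ia, beat-Ib, beat-IIIa and beat-Vb had no type mean above 2.69 RPKM and beat-VII had at most 12.97 RPKM, in L2.

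**Figure D4:**
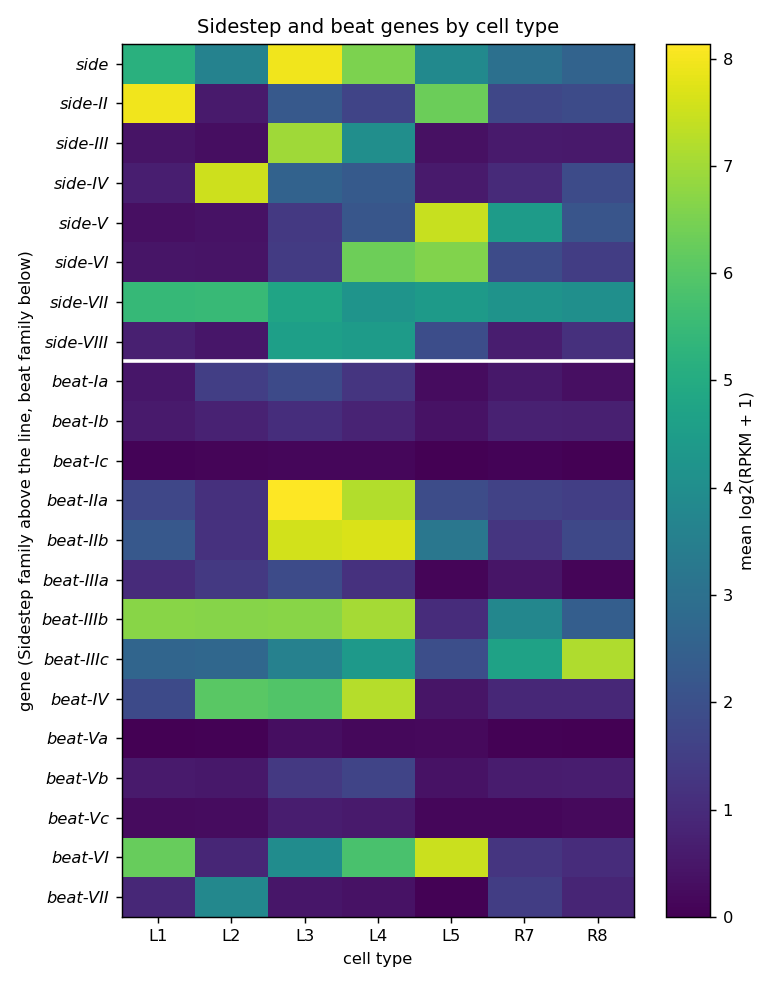
Heat map of the mean log2(RPKM + 1) of the 8 Sidestep genes (above the white line) and 14 beat genes (below it) in each of the 7 cell types, with dark blue for 0 and yellow for the highest. Bright cells stand in different columns from gene to gene, and beat-IIa and beat-IIb are bright in L3 and L4 where side-IV is dark.

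The receptors of Side-IV were low in the type where the ligand was high. In L2, with 195 and 167 RPKM of side-IV, beat-IIa had 1.54 and 0.893 RPKM and beat-IIb had 0.997 and 1.52 RPKM. In L4, with 3.69 and 4.201 RPKM of side-IV, beat-IIa had 150 and 142 RPKM and beat-IIb had 195 and 210 RPKM. L2 and L4 are known to be connected by synapses in the lamina. In L3, beat-IIa had 375, 302, 238 and 230 RPKM and beat-IIb had 191, 154, 177 and 247 RPKM. Ligand and receptors therefore had opposite differences between L2 and L4: side-IV was higher in L2 by 5.20 ± 0.22 on the log2(RPKM + 1) scale, and beat-IIa and beat-IIb had differences of -6.07 ± 0.26 (limma, adjusted p = 4.76e-09) and -6.50 ± 0.24 (adjusted p = 1.25e-09). No type had both side-IV and a beat-II gene above 10 RPKM.

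The pair of Side-II and Beat-VI was arranged otherwise, since the 2 types with the most side-II also had the most beat-VI. The beat-VI values were 184 and 170 RPKM in L5 and 68.1 and 80.8 RPKM in L1. L4 had 53.9 and 55.8 RPKM and L3 had 15.4, 15.6, 14.2 and 13.1 RPKM, in both cases with side-II at no more than 4.87 RPKM. L2 and the photoreceptors had little of either, with beat-VI at 0.675 to 1.62 RPKM. Between L1 and L5 the 2 genes differed in opposite directions: side-II was higher in L1, and beat-VI was higher in L5 (-1.24 ± 0.17 for L1 against L5, limma, adjusted p = 0.000178).

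For Side and for Side-VI the known receptors were low in all 7 types, though read. No library had more than 4.504 RPKM of beat-Ia, the receptor of Side, and its L3 mean of 2.69 ± 1.28 RPKM (SD, n = 4) was the highest of any type. The 3 beat-V genes had type means of at most 2.24 RPKM, the level of beat-Vb in L4. Ligand genes at 266 RPKM (side in L3) and 95.3 RPKM (side-VI in L5) thus stood beside far lower levels of these receptor genes in the same 7 types.

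**Figure D5:**
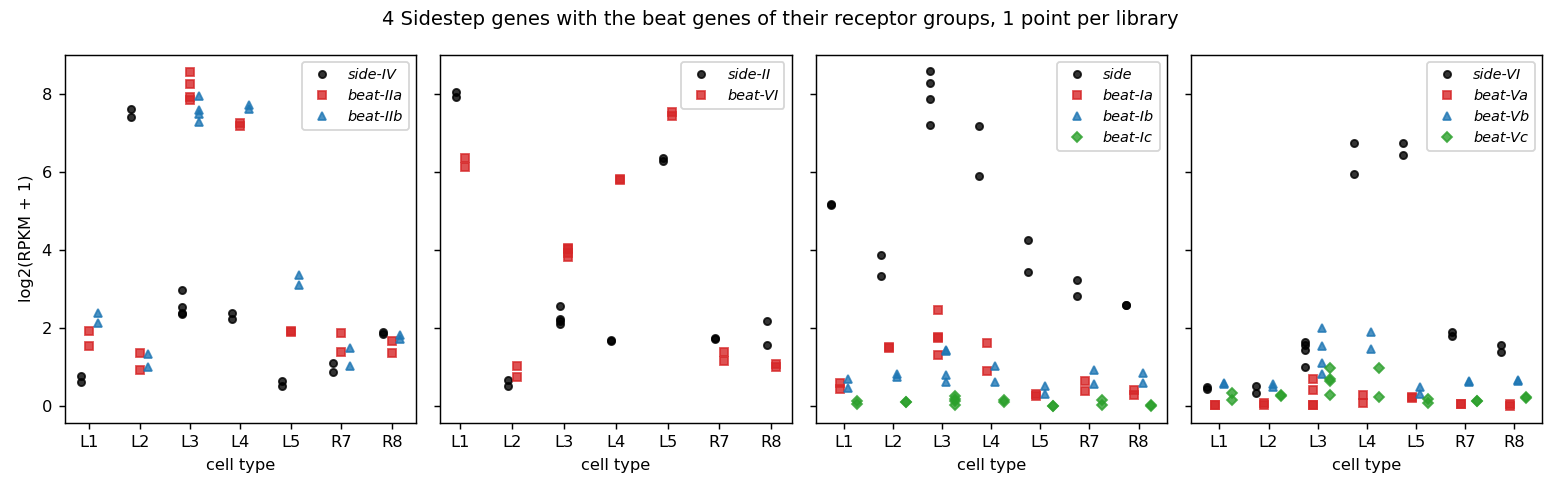
Each panel plots log2(RPKM + 1) by cell type, 1 point per library, for a Sidestep gene (black circles) and the beat genes of its receptor group (coloured symbols). In the first panel black and coloured points are high in different types, in the second they are high together in L1 and L5, and in the last 2 panels the coloured points lie near the bottom in all types.

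Genes tied to the function of these pairs were also examined. The co-receptor gene of the Side-IV pair, kirre, was read in all lamina types with means of 261 RPKM in L2 to 536 RPKM in L3, and at 19.5 RPKM in R7 and 52.9 RPKM in R8 (-3.41 ± 0.24 for photoreceptors against lamina, limma, adjusted p = 6.44e-08). RhoGAP100F, which encodes the presynaptic scaffold protein Syd-1, was lower in photoreceptors by -1.56 ± 0.19 on the log2 scale (adjusted p = 1.03e-05). L2 thus had side-IV, kirre and RhoGAP100F together, the last at 63.7 ± 22.1 RPKM (SD, n = 2). Of these only side-IV was particular to L2. The other lamina types had RhoGAP100F means of 40.3 RPKM in L5 to 107 RPKM in L3, and L2 had the lowest lamina mean of kirre. The cell adhesion gene Fas2, which acts with beat genes in motor axon guidance, had 15.5 ± 9.97 RPKM in L4 (SD, n = 2), and means of 175 to 814 RPKM in the other types.

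For each member the 3 genes with the most similar pattern were named by Pearson r over the 7 type means, among 5795 genes whose highest type mean was 10 RPKM or more. With side these were CR43476 (0.97), CG14183 (0.97) and Ilp4 (0.97), and with side-II they were CG11456 (0.97), Lar (0.96) and Rab7 (0.95). Lar encodes a receptor tyrosine phosphatase of axon targeting. With side-III they were tRNA:CR31885 (0.99), tRNA:CR30299 (0.98) and nvy (0.97), and with side-IV they were bab2 (0.99), bab1 (0.98) and DopR (0.98), of which bab1 and bab2 are the transcription factor genes that mark L2. With side-V they were CG13539 (0.97), hipk (0.93) and CR41604 (0.93), and with side-VI they were Drep-3 (0.98), GluRIA (0.98) and LpR1 (0.97). With side-VII they were CG10253 (0.99), SAK (0.98) and Gp93 (0.98). With side-VIII they were beat-IIb (0.99), beat-IIa (0.97) and csw (0.97), so that a Sidestep gene and a pair of beat genes shared the L3 and L4 pattern. Pearson r takes no account of the size of a difference, so a gene named here need not be restricted to the same types. Rab7 had type means from 89.1 RPKM in L2 to 108 RPKM in L1, where side-II ran from 0.512 to 251 RPKM. The means of csw ran from 75.4 RPKM in R8 to 133 RPKM in L4, and those of hipk and CR41604 also varied far less than those of side-V. With 7 points and this many candidates, the ranking is a description only.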

How the data were processed

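RNA from sorted cells was sequenced in 16 libraries of 7 cell types, as labelled. The submitters' processing notes name TopHat and the build BDGP5, and the authors deposited 1 table of RPKM values. Tool versions, the counter, the annotation and any use of strand were not stated in what was used here. RPKM values were used as deposited. Steps between low values gave each library's depth; 70.7 to 74.2% of values up to 20 reads came within 0.05 of whole reads, so no count test was run. Later annotation served for names, exon lengths, exon overlap and neighbours. Depths, read numbers and mitochondrial shares rest on those exon lengths, which may differ from the lengths behind the RPKM values. The lowest member value, of side-IV in L5 replicate 1, came to 103.92 reads, which is not within 0.05 of a whole read. Sequences were not used here.

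Genes with at least 1 RPKM in at least 2 libraries (9346) were fitted as log2(RPKM + 1) in R 4.3.3 by limma 3.58.1, using a mean per type, a trend in the variance and Benjamini-Hochberg adjustment over all genes tested, called under 0.05. Fold changes of low genes are understated on this scale. The fit was checked on simulated data. Named genes are the 8 members, 14 beat genes, kirre, RhoGAP100F and Fas2, and the 3 genes most alike to each member. Members and lists were chosen with earlier results of these data known. The marker names NimC1 and Crys matched no row. Alternatives were quantile normalization, no filter, a filter of 5 RPKM, a pseudocount of 0.1, a replicate block, no variance trend, and libraries left out. Figures came from matplotlib 3.10.9 and other steps from pandas 2.3.3 and numpy 2.4.6 under Python 3.11.15.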

Additional observations from a re-analysis of the deposited data

How the results depend on the processing

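No result for a member reversed under any alternative. Quantile normalization removed the 1 member lower in R7 than in R8 (side-IV), leaving 0, and moved the median of all genes for L1 against the other lamina types from -0.10 to 0.02. With no filter, L1 and L2 each had 1 member higher in place of 2, and with no variance trend L1 had 1, the lost member being side-VII. Deviations of same-numbered libraries correlated at -0.25 to 0.32 over 21 pairs, 7 of them over 0.1. The labels do not say whether libraries of the same number belong together, and the main fit did not pair them. As a hint from the data, 12 of 14 libraries correlated best with their own number. In a type of 2 libraries the deviations from its mean are equal and opposite, so its 2 libraries count as 1 case. With replicate number as a block, L3 replicates 3 and 4 each stand alone at their number, so the block also takes them out of the differences. The block gave 1542 genes called for R7 against R8 (966 without it), 3202 for L1 (1971) and 3112 for L2 (2016). It gave 3634 for L4 (2225) and 2782 for L5 (1633), and 5 members lower in L5 (3 without it). Leaving out L3 replicates 3 and 4 with no block gave 3390 genes for L4 and 2593 for L5. The counts with the block thus do not measure pairing alone. The causes were not tested. Leaving out single libraries, which also lowers the number of samples, gave 841 to 2368 genes for L1, 625 to 2556 for L2, 1629 to 2544 for L3, 1635 to 2618 for L4, 743 to 1980 for L5, 444 to 1143 for R7 against R8 and 4881 to 6084 for photoreceptors against lamina. The members higher numbered 1 to 2 in L1, 1 to 2 in L2 and 3 to 4 in L4, and those lower numbered 1 to 3 in L4, 2 to 4 in L5 and 0 to 1 for R7 against R8. A lone library left in a type was assumed to vary like the others. By exon lengths of the current annotation, no member value rested on fewer than about 104 reads. Counting error was not compared with the spread between libraries.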

Other observations

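The genes next to each member on the chromosome in the current annotation were looked up in the same table, which holds values for those of all members but side, a choice made after the most similar genes had been listed. Both neighbours of side-V had their highest level in L5 as it did. CG13539 had 66.8 ± 24.9 RPKM in L5 (SD, n = 2), with a Pearson r of 0.97 to side-V over the 7 type means, and CG13545 had 94.3 ± 57.6 RPKM in L5 (SD, n = 2), from 53.6 and 135 RPKM, with an r of 0.92. Of the other neighbours that passed the filter, r was -0.08 for CG2017 next to side-III, -0.30 for yrt next to side-IV, and 0.22 for alphaTub85E and 0.62 for Pnn next to side-VII. No member had another member as a neighbour.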
